A study of Mus musculus with 4 samples.

Results

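The 8 genes described here encode transcription factors that set or change the identity of vascular smooth muscle cells (VSMCs): Myocd, Srf, Mef2c, Klf2, Klf4, Tcf21, Scx and Prrx1. They were taken by name from 34469 gene names listed over 4 single-cell RNA libraries. All 8 had a row in the tables from plaques, and 7 had one in the tables from ligated arteries. Tcf21 had no row in either ligation table and is given no value there.

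The study asks how telomere damage and premature senescence of VSMCs bear on their change of phenotype. Plaques came from the aortic root, aortic arch and carotid arteries of C57Bl/6 Myh11-CreERt2/Confetti/ApoE-/- mice (ApoE-/-) and Myh11-CreERt2/Confetti/Sm22a-Trf2T188A/ApoE-/- mice (Trf2T188A/ApoE-/-), so both genotypes lacked ApoE and carried the Confetti lineage reporter. Tamoxifen had been given from 6 weeks of age in 10 injections over 2 weeks, followed by 14 weeks of high fat diet. Carotid arteries came from male C57Bl/6 mice aged 4 to 5 months at ligation, either Sm22a-Trf2T188A (Trf2T188A) or wild type littermates (control), 28 days after the vessel was tied, with the adventitia removed. The Trf2T188A transgene encodes a mutant telomere-binding protein under a minimal Sm22a promoter, which directs it to smooth muscle, but cells of other origin that turn on Sm22a could carry it too. Myh11-CreERt2 marks cells that expressed Myh11 when tamoxifen was given. There was 1 library per genotype and experiment, and the number of mice in each is not given in the sources used here. No test between genotypes was therefore possible, no p-value is given, and the intervals below cover the counting of unique molecular identifiers (UMIs) only.

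Contractile VSMCs express smooth muscle actin, myosin and their regulators through serum response factor (SRF), which binds CArG boxes in DNA. Myocardin, the product of Myocd, is the cofactor that directs SRF to contractile genes, and MEF2C acts with it in muscle lineages. The zinc finger factors KLF4 and KLF2 are early response genes, and KLF4 is known as a repressor of the contractile programme. TCF21, scleraxis (Scx) and PRRX1 are factors of mesenchymal and connective tissue lineages, associated with fibroblast, tendon and limb mesenchyme programmes.

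In GENCODE vM21 on GRCm38, the members fall into short and long genes. Klf2 lies on chromosome 8 from 72319033 to 72321656, Klf4 on chromosome 4 from 55527143 to 55532466, Tcf21 on chromosome 10 from 22817281 to 22820174 and Scx on chromosome 15 from 76457452 to 76459458. Srf lies on chromosome 17 from 46548329 to 46556175 and spans 7.8 kb. Prrx1 lies on chromosome 1 from 163245119 to 163313710 (68.6 kb), Myocd on chromosome 11 from 65176561 to 65269989 (93.4 kb) and Mef2c on chromosome 13 from 83504034 to 83667080 (163.0 kb). All values below are per gene, so reads cannot be placed in an exon, an intron or a UTR.

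The CArG box, the DNA element read by SRF, was looked for from 250 bases before to 50 bases after the start site in RefSeq promoters of GRCm38.p6, where 6 of the 8 members were matched, without Myocd and Scx. Of the members only the Srf promoter held it, in 2 copies on the minus strand at chr17:46556215-46556244, and the window is shown because SRF level and contractile gene level are set side by side below. The box was also present in promoters of the contractile genes Vcl (vinculin) at chr14:20929161-20929190 and Myl9 (myosin light chain) at chr2:156775293-156775322, both on the plus strand, and of the early response gene Zfp36 at chr7:28379267-28379296 on the minus strand. The windows are written 5′ to 3′ on the strand of the gene, with the CArG box in capitals.
Srf: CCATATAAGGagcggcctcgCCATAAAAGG
Vcl: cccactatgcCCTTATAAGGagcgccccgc
Myl9: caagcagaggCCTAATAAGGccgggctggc
Zfp36: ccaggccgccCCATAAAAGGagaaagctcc
The box is its own reverse complement, so both strands were searched at once. It was held by 1.6% of the 32851 promoters in the table, by the promoters of 2 of 11 matched contractile genes and by those of 2 of 14 matched early response genes, Egr2 and Zfp36. The element CCACCC, of the kind bound by KLF factors, was searched on both strands and was held by 31.5% of all promoters and by those of Srf, Mef2c and Klf2 among the members. The Klf2 copy lay on the opposite strand at chr8:72319031-72319060 and reads GGGTGG in the direction of the gene. This window lies before the RefSeq start site. In GENCODE, where the gene starts at 72319033, most of it lies within the gene. CCACCC can overlap a CArG box only at its outer bases.
Klf2: cctataaggcctGGGTGGgccgggccacag

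The tables held 1502 ApoE-/- and 929 Trf2T188A/ApoE-/- cells with medians of 22765.5 and 24377 UMIs per cell, and 4967 control and 5392 Trf2T188A cells with medians of 8631 and 11153 UMIs. Levels are UMIs of a gene per 1000000 UMIs summed over the cells of a group (CPM). Contractile genes (a list of 14, from Myh11 to Myl9) made up 31860 and 29200 CPM in the plaque libraries and 44990 and 45470 in the ligation libraries. Endothelial markers summed to 60.4 and 70.3 and immune markers to 32.3 and 52.1 CPM in plaques, and 1 of the 10 endothelial markers was at 0 in the Trf2T188A/ApoE-/- library. The ligation libraries shared 10 cell barcodes, the plaque libraries none. The lowest number of genes per cell was 1531 in ApoE-/- and 1056 in Trf2T188A/ApoE-/- plaque cells, since the study's filter differed between these genotypes.

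Cells were clustered again with the members and all listed genes kept out of the clustering genes, and classes were named after the study's clusters whose markers led them (C2-like for their Cluster 2, written Cluster 2-like in the plots, and so on, separately in plaque and ligation). In plaques, 2 clusters formed the contractile class (608 ApoE-/- and 269 Trf2T188A/ApoE-/- cells). C2-like cells (166 and 117) were led by Fbln2, Thbs1 and Timp1, C4-like cells (112 and 87) by the inflammatory genes C3, Cp and Lcn2, and C8-like cells (97 and 82) by the cartilage genes Col2a1, Ibsp and Chad. C5-like cells (87 and 104) had a median of only 9101 UMIs. After ligation, C0-like cells numbered 1487 control and 2252 Trf2T188A, C1-like cells 1973 and 1815 and C2-like cells 1266 and 1123. Endothelial-like (62 and 65) and immune-like (20 and 57) cells of the ligated artery served as other cell types. Since classes are clusters of the same cells, differences between classes are described without a test. Rebuilt classes may differ from those of the study.

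Detection of the members was broad. The median plaque cell held a UMI of 5 of the 8 members in either genotype, and the median cell after ligation held 4 of 7 in control and 5 of 7 in Trf2T188A. Mef2c, Klf4, Klf2, Myocd and Prrx1 were found in most cells of every library, Scx and Srf in a minority, and Tcf21 in 3.66% of ApoE-/- and 2.26% of Trf2T188A/ApoE-/- plaque cells.

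**Figure D1:**
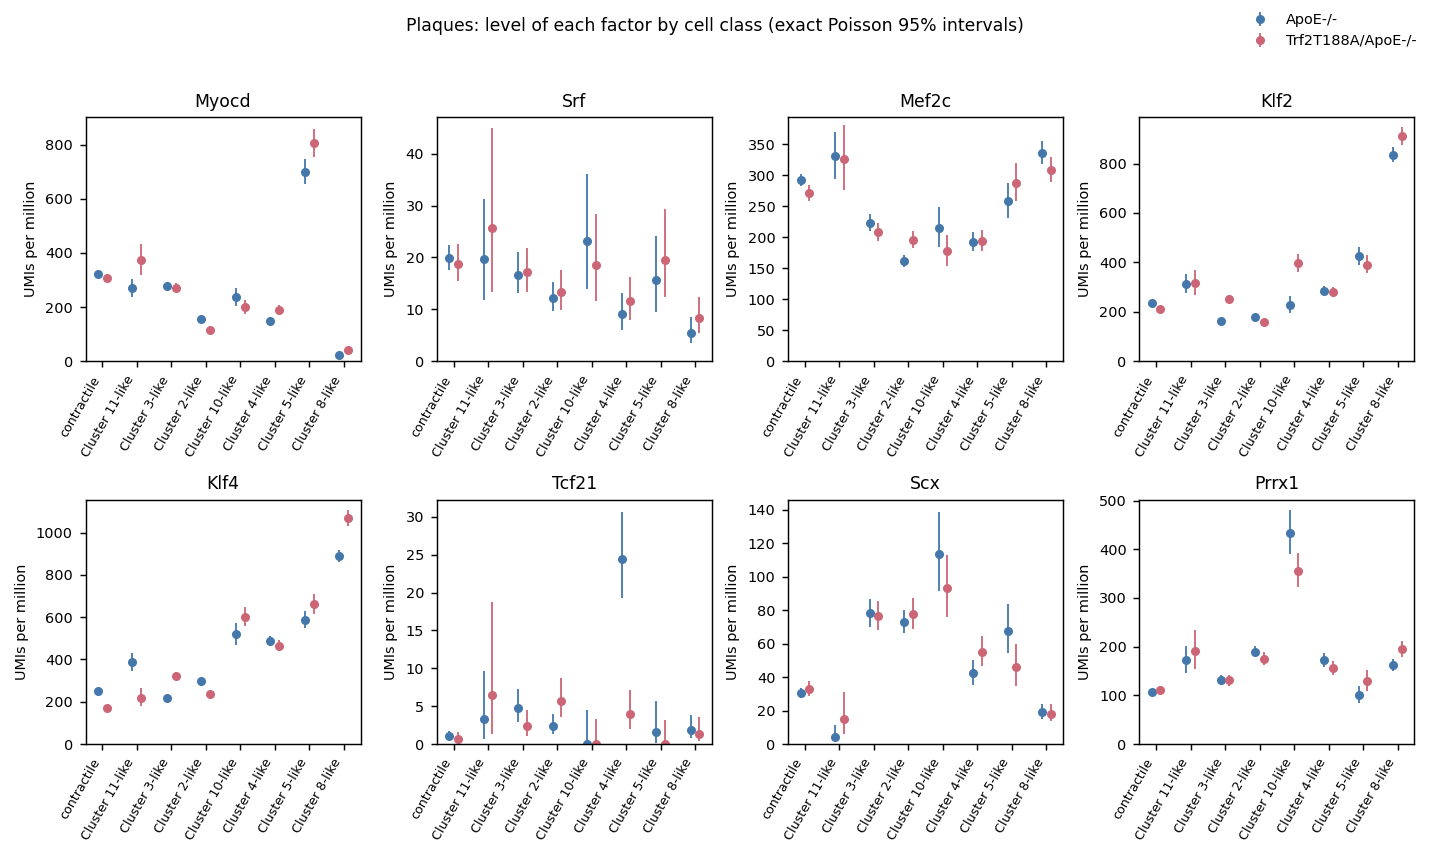
Level of each of the 8 factors (CPM, y axis) in 8 plaque cell classes (x axis) of the ApoE-/- library (blue) and the Trf2T188A/ApoE-/- library (red), with exact Poisson 95% intervals. Myocd and Srf sit lowest and Klf2 and Klf4 highest in C8-like cells, while Scx and Prrx1 peak in C10-like cells.

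Over the contractile, C2-like and C8-like classes of plaques, Myocd, the contractile cofactor, stood in the order of their contractile genes. It stood at 323.6 CPM (95% interval 314.1 to 333.3) in contractile ApoE-/- cells and at 307.3 (293.7 to 321.4) in contractile Trf2T188A/ApoE-/- cells. In C2-like cells the levels were 155.2 and 113.5. In C8-like cells they were 22.8 and 40.7, from 87 and 117 UMIs. Both libraries therefore gave the same order, with no overlap of the intervals of the 3 classes. The log2 ratio to contractile cells was -1.06 (-1.16 to -0.96) and -1.44 (-1.59 to -1.28) for C2-like cells and -3.82 (-4.15 to -3.52) and -2.92 (-3.20 to -2.65) for C8-like cells, in ApoE-/- and Trf2T188A/ApoE-/- respectively.

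The share of cells with a Myocd UMI followed the level. It was 96.6% and 90.0% in contractile cells, 79.5% and 56.4% in C2-like cells and 34.0% and 45.1% in C8-like cells. With each cell thinned to 8000 UMIs the same shares were 82.4% and 81.5%, 53.1% and 37.9%, and 12.1% and 19.7%. Fibroblast-like plaque cells of the ApoE-/- library held a Myocd UMI in 34.3% of 35 cells at a median of 13251 UMIs, against 34.0% of ApoE-/- C8-like cells at a median of 34769 UMIs. They also held contractile genes at 9028 CPM, against 1537 in the C8-like cells, and so give no background free of smooth muscle RNA.

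C5-like cells stood apart from this order, with contractile genes at 24450 and 22000 CPM against 52450 and 54750 in contractile cells. Their Myocd was nonetheless above that of contractile cells, at 699.8 CPM in ApoE-/- and 806.0 in Trf2T188A/ApoE-/-. These cells had the lowest UMI counts, and a list of 5 RNAs that stay in the nucleus, among them Malat1 and Neat1, took 41290 and 60970 CPM against 24360 and 24060 in contractile cells. Their part in the Myocd value was not tested.

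After ligation the range of Myocd was narrower. C0-like cells held 148.9 CPM in control and 128.2 in Trf2T188A, C1-like cells 163.4 and 133.7, and C2-like cells, the class with the fewest contractile UMIs, 98.2 and 78.0. The log2 ratio of C2-like to C0-like cells was -0.60 (-0.70 to -0.50) in control and -0.72 (-0.82 to -0.62) in Trf2T188A. Endothelial-like cells, which do not use myocardin, held it at 4.99 and 21.2 CPM, with a UMI in 6.45% and 12.3% of cells at medians of 10407 and 14166 UMIs.

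In all 3 ligation classes Myocd was lower in the Trf2T188A library, by log2 ratios of -0.22 (-0.29 to -0.14), -0.29 (-0.36 to -0.22) and -0.33 (-0.45 to -0.21), none at the 0.5 used as a limit here. Thinned to 5000 UMIs, a Myocd UMI was found in 45.0% of Trf2T188A against 49.8% of control C0-like cells, in 43.8% against 52.3% of C1-like and in 30.5% against 36.0% of C2-like cells. Genes of a similar span moved slightly the same way. Over 1200 genes of 50 to 100 kb the median genotype log2 ratio in ligation VSMCs was -0.07 (quartiles -0.15 and 0.02), and Myocd at -0.25 lay at percentile 6.8 of them.

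Between experiments Myocd was higher in plaques, by a log2 ratio of 0.83 in the controls and 1.04 in the mutants. Over the 1200 genes of 50 to 100 kb, the span of Myocd, the medians were 0.12 and 0.17, and Myocd lay at percentiles 93.2 and 95.8 of them. Genes of 100 kb or more had medians of 0.49 and 0.56 over 1041 genes, while genes under 10 kb stood at -0.10 and -0.17 over 1749 genes. Per the labels the plaque reads were counted with Cell Ranger 7.0.0 and the ligation reads with 6.1.2, versions that differ in whether intronic reads count by default, and the setting used is not given in the sources used here. Levels in the 2 experiments are not compared further.

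Srf, the DNA-binding partner of myocardin, was sparse but ordered in the same way. Contractile plaque cells held 19.9 CPM (17.6 to 22.4) in ApoE-/- and 18.8 (15.5 to 22.5) in Trf2T188A/ApoE-/-. C2-like cells held 12.2 and 13.3, and C8-like cells 5.52 and 8.34, from 21 and 24 UMIs. The log2 ratio of C8-like to contractile cells was -1.85 (-2.57 to -1.21) and -1.17 (-1.87 to -0.53). C2-like and C4-like cells did not differ beyond their counting intervals.

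After ligation Srf stood at 14.03, 15.9 and 12.6 CPM in control C0-, C1- and C2-like cells and at 18.5, 19.1 and 15.3 in Trf2T188A. The Trf2T188A value was the higher in each class, by log2 ratios of 0.40 (0.16 to 0.64), 0.26 (0.04 to 0.48) and 0.28 (-0.03 to 0.59). The share of cells with an Srf UMI, 12.4% in control and 19.2% in Trf2T188A, differed far less once cells were thinned, at 6.66% and 7.64%.

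Mef2c, which cooperates with myocardin in muscle development, did not follow the contractile order of the classes. Its level was 292.2 and 270.8 CPM in contractile plaque cells, was 160.9 and 195.9 in C2-like cells, and was 335.9 and 308.7 in C8-like cells. The cartilage gene-rich class thus held more Mef2c than contractile cells, by log2 ratios of 0.20 (0.11 to 0.29) and 0.19 (0.07 to 0.31), while Myocd and Srf were lower there. After ligation Mef2c ranged over the 3 VSMC classes from 330.4 to 406.7 in control and from 302.3 to 383.9 in Trf2T188A.

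**Figure D2:**
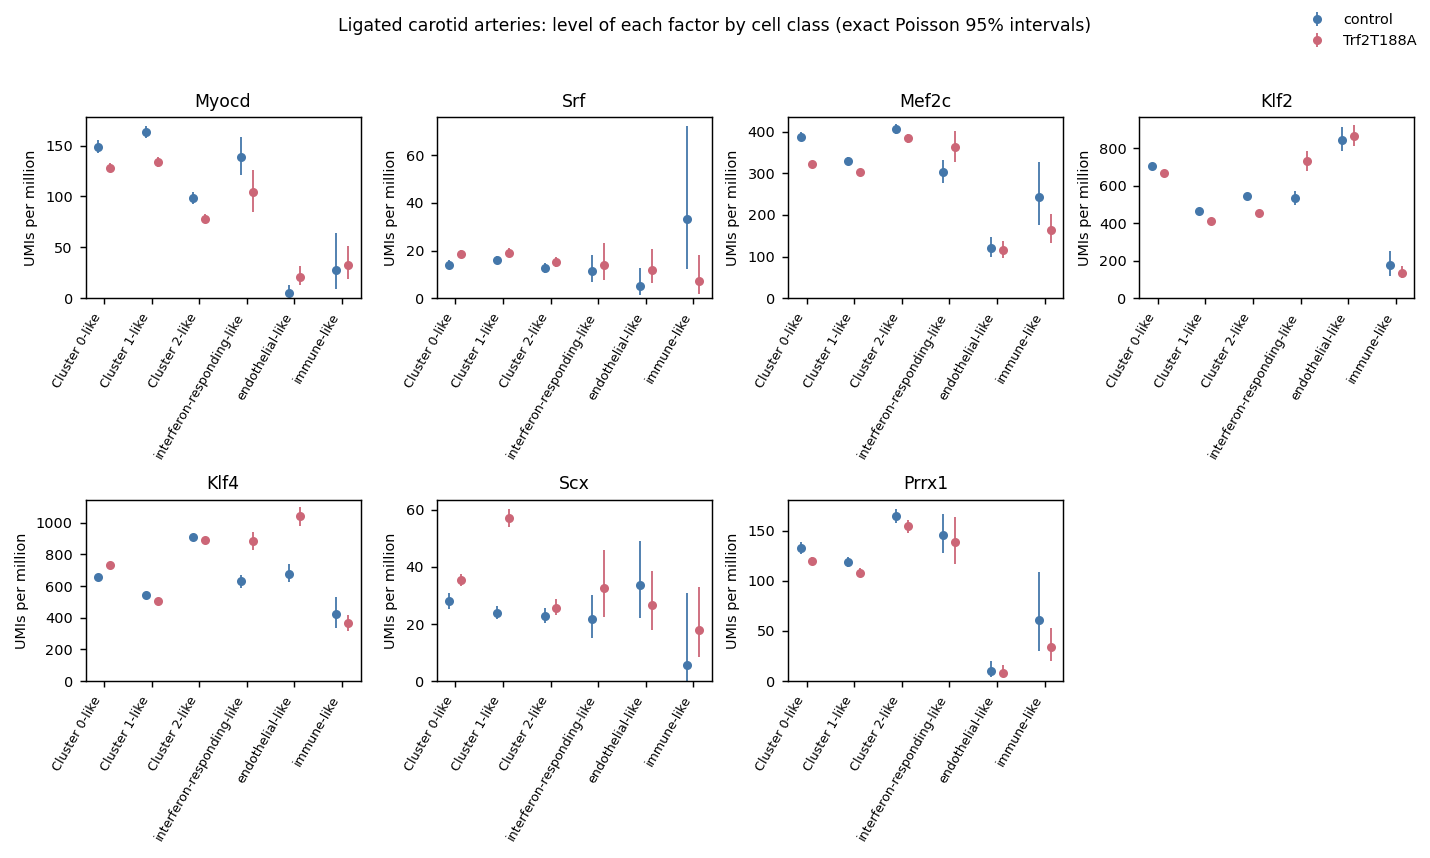
Level of the 7 factors with a row (CPM, y axis) in 6 cell classes of ligated carotid arteries (x axis) of the control library (blue) and the Trf2T188A library (red), with exact Poisson 95% intervals. Scx of C1-like cells is 24.0 in control and 57.1 in Trf2T188A, the widest log2 ratio between the libraries among the 3 VSMC classes in which all factors are well counted. In CPM other factors with higher levels are further apart.

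Cells were also ordered by their own contractile share, without clusters. Those of each library were divided into quintiles by the share of UMIs from the 14 contractile genes, which had a median of 0.19% in the lowest and 6.15% in the highest ApoE-/- quintile. Myocd stood at 70.4 CPM outside the list in the lowest ApoE-/- quintile, at 284.6 in the second, 343.1 in the third, 355.9 in the fourth and 313.6 in the highest quintile. In Trf2T188A/ApoE-/- the same values were 45.9, 282.7, 348.4, 344.2 and 289.1. Most of the difference thus lay between the lowest quintile and the next, and the highest quintile was not the peak in either library.

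The log2 ratio of the highest to the lowest quintile was 2.15 (2.03 to 2.28) and 2.66 (2.46 to 2.85) for Myocd and 1.74 (1.31 to 2.18) and 1.57 (1.04 to 2.11) for Srf in plaques. After ligation it was 1.05 (0.93 to 1.18) and 1.05 (0.94 to 1.17) for Myocd and 0.62 (0.24 to 1.0) and 0.60 (0.33 to 0.88) for Srf. Klf4 ran the other way in all 4 libraries, at -1.88, -2.06, -0.96 and -1.16, and Prrx1 at -0.67, -0.74, -0.57 and -0.53. Klf2 did so mainly in plaques, at -1.15 and -1.40 against -0.10 and -0.25 after ligation. Mef2c, unlike in the classes, was higher in the cells richest in contractile UMIs in plaques, at 312.3 against 216.8 CPM in ApoE-/- (0.53, 0.44 to 0.62) and 282.9 against 243.1 in Trf2T188A/ApoE-/- (0.22, 0.11 to 0.33), while its ratios after ligation were -0.03 and -0.04. Scx peaked in the middle in plaques, at 79.6 CPM in the second ApoE-/- quintile and at 96.0 in the third Trf2T188A/ApoE-/- quintile. Its ratio of the highest to the lowest quintile there was 0.34 (0.1 to 0.58) and 1.11 (0.78 to 1.45). In both ligation libraries Scx stood highest in the cells richest in contractile UMIs. It was 31.4 against 24.6 in the lowest quintile of control (0.35, 0.09 to 0.62) and 61.5 against 35.2 in Trf2T188A (0.80, 0.63 to 0.97). The highest control quintile (27.69 to 35.48) overlapped the fourth (24.14 to 31.21).

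**Figure D3:**
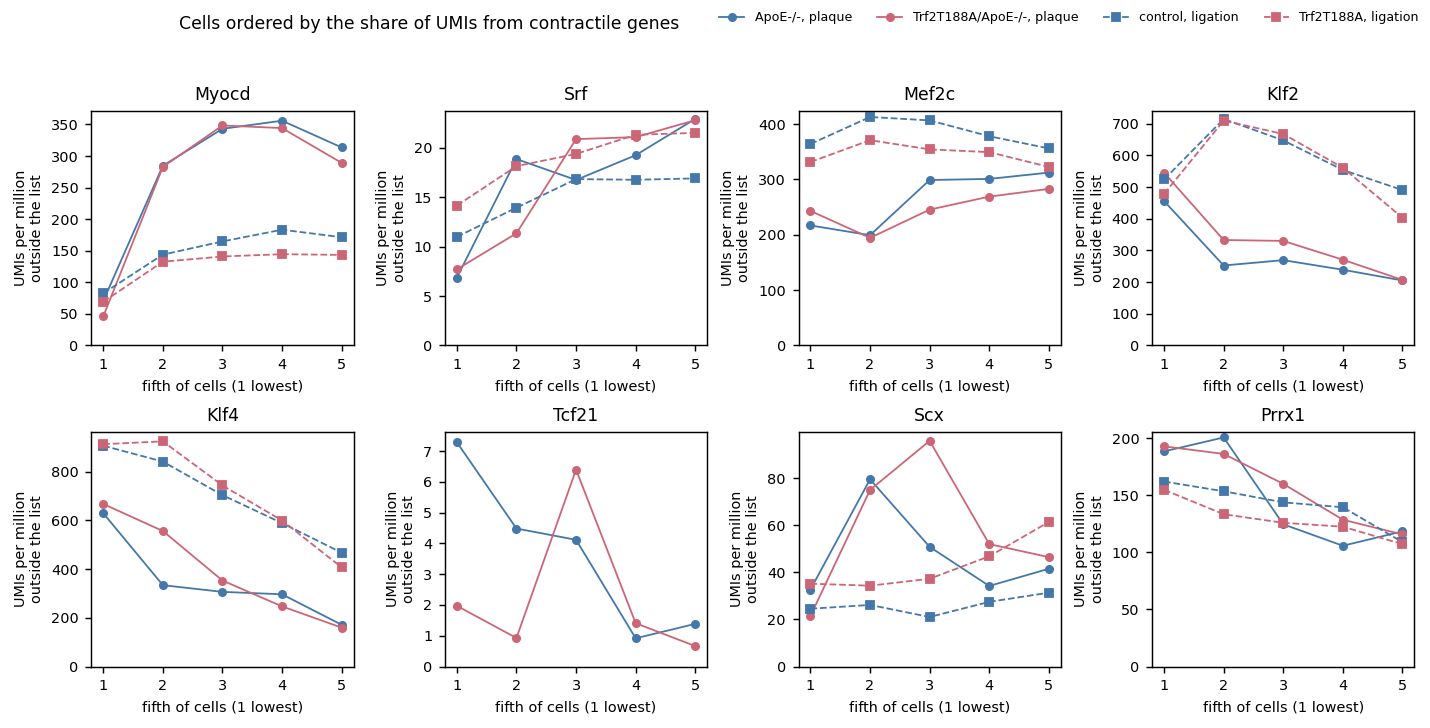
Level of each factor (CPM outside the contractile list, y axis) in quintiles of cells ordered by the share of UMIs from 14 contractile genes (x axis, 1 lowest), for plaque libraries (circles, solid lines) and ligation libraries (squares, dashed lines), control blue and Trf2T188A red. Myocd is far lower in quintile 1 of the plaque libraries (70.4 and 45.9) than in the others, and Klf4 is lowest in quintile 5.

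Klf4, the early response factor known to repress contractile genes, was highest in C8-like plaque cells. It stood at 888.5 CPM (858.8 to 918.9) in ApoE-/- and 1067.2 (1029.8 to 1105.6) in Trf2T188A/ApoE-/-, against 250.03 and 170.8 in contractile cells. The log2 ratios were 1.83 (1.76 to 1.90) and 2.64 (2.54 to 2.75). Klf2, better known as the flow-responsive factor of endothelium, was higher in the same class too, at 836.7 and 911.1 against 234.4 and 210.0, with log2 ratios of 1.84 (1.76 to 1.91) and 2.12 (2.02 to 2.21). In C2-like cells neither reached the limit of 0.5 in both libraries, with Klf4 at 0.26 and 0.48 and Klf2 at -0.39 and -0.42.

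Genes induced by enzymatic digestion of tissue, a list of 16 from Fos and Junb to Hspa1b that leaves out the members, were set beside Klf2 and Klf4. They made up 19570 and 19790 CPM in C8-like cells and 11090 and 9693 in contractile cells. In that class 7 of the 16 were at or past 0.5 in both libraries, where 48.4% of 10906 genes were in either direction. These shares are near each other, but the directions differed. All 7 were upward, whereas over all genes 1812 were upward and 3469 downward. The median log2 ratio was 0.71 over the list and -0.281 over all genes. Egr2 was the highest of the list and Jund (mean of -0.55) the lowest. Zfp36 stood at log2 ratios of 2.09 and 1.92, Junb at 2.01 and 2.33 and Egr1 at 1.57 and 1.95. In quintiles of cells ordered by the share of these genes, Klf2 went from 91.0 in the lowest to 679.4 CPM in the highest ApoE-/- quintile and from 77.8 to 1022 in Trf2T188A/ApoE-/-. Klf4 went from 132.7 to 820.5 and from 100.6 to 1055.

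After ligation the 2 factors were again higher at every step of the digestion-induced share. The log2 ratio of the highest to the lowest quintile was 1.77 (1.70 to 1.83) and 2.30 (2.24 to 2.37) for Klf2 and 1.95 (1.89 to 2.02) and 2.53 (2.47 to 2.59) for Klf4, in control and Trf2T188A. The same ratios for Srf were 0.26 (-0.11 to 0.62) and 0.19 (-0.09 to 0.46), and for Prrx1 0.23 and 0.16. Myocd came next after Klf2 and Klf4, at 0.48 (0.36 to 0.59) and 0.61 (0.50 to 0.71), and at 0.77 (0.67 to 0.87) and 1.47 (1.33 to 1.60) in plaques. Scx ran weakly the other way, at -0.44 and -0.46. The part of tissue digestion in the Klf2, Klf4 and Myocd values was not tested.

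**Figure D4:**
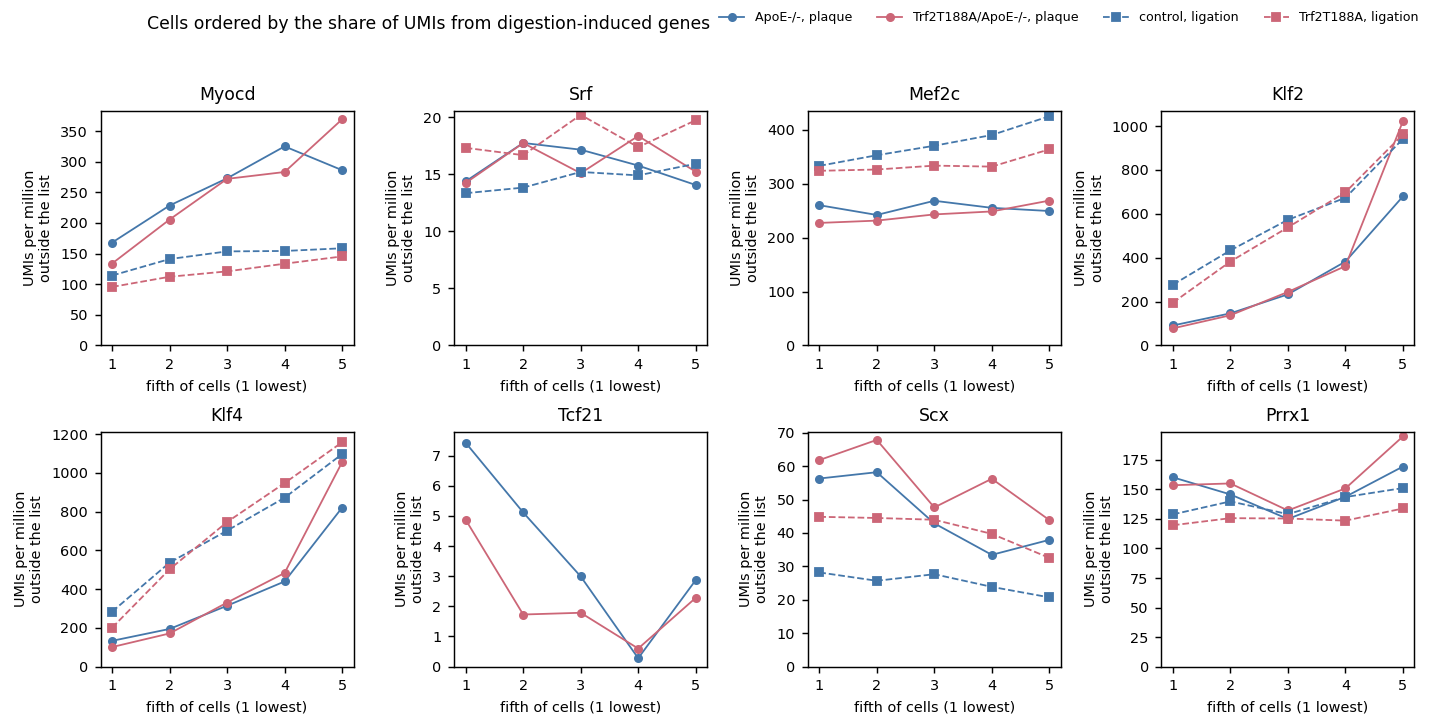
Level of each factor (CPM outside the digestion-induced list, y axis) in quintiles of cells ordered by the share of UMIs from 16 digestion-induced genes (x axis, 1 lowest), with symbols as in the plot by contractile share. Klf2 and Klf4 are higher at each step in all 4 libraries, for example Klf4 from 132.7 to 820.5 in ApoE-/- plaques, while the log2 ratio of the highest to the lowest quintile lies between 0.48 and 1.47 for Myocd and between -0.06 and 0.35 for Srf, Mef2c and Prrx1.

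Across ligation classes Klf2 and Klf4 separated. Of the 3 VSMC classes, Klf2 was highest in C0-like cells, at 708.2 in control and 669.3 in Trf2T188A, and lower in C1-like cells at 464.1 and 412.2, with log2 ratios of -0.61 (-0.65 to -0.57) and -0.70 (-0.74 to -0.66). Klf4 was highest in C2-like cells at 909.1 and 890.7, followed by C0-like at 659.8 and 734.8 and C1-like at 544.9 and 505.0. Both were also abundant in endothelial-like cells, Klf2 at 847.9 and 867.6 and Klf4 at 678.3 and 1039, and low for Klf2 in immune-like cells at 177.1 and 136.0. The 2 factors were found together more often than apart. Among thinned plaque cells with a Klf2 UMI 72.8% and 75% also had a Klf4 UMI, against 55.9% and 55.1% of those without.

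Tcf21, a factor of epicardial and fibroblast lineages, was the rarest member. It gave 145 UMIs in 55 of 1502 ApoE-/- cells and 54 UMIs in 21 of 929 Trf2T188A/ApoE-/- cells. Of the ApoE-/- UMIs, 76 came from C4-like cells, where 20 of 112 cells held one and a single cell held 15. That class stood at 24.5 CPM (19.3 to 30.7) in ApoE-/- and at 3.97 (1.98 to 7.11) in Trf2T188A/ApoE-/-, from 11 UMIs. The 10% of cells richest in Tcf21 held 86.8% of the ApoE-/- UMIs of the class, so its level rests on few cells. Fibroblast-like markers summed to 420.2 and 391.5 CPM there.

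In C2-like cells the Tcf21 levels were 2.40 and 5.69, from 15 and 21 UMIs, and in contractile cells 1.03 and 0.642, from 14 and 4. The C2-like UMIs came from 3.61% of 166 ApoE-/- cells and 1.71% of 117 Trf2T188A/ApoE-/- cells. The higher level thus came with the smaller share of cells, and both levels rest on few cells. No Tcf21 UMI was found in the 35 fibroblast-like ApoE-/- cells, which at a limit of 3 counts allows a share of up to 8.57% of cells with a UMI and bears on detection only, although these cells held the 10 fibroblast markers at 4174 CPM against 221.5 in all cells of the library. Tcf21 did not pass the filter of a UMI in at least 10% of cells in any comparison below.

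Scx, the tendon factor scleraxis, was highest in plaque cells between the contractile and the cartilage-like extremes. It stood at 30.2 CPM in contractile ApoE-/- cells and 32.8 in contractile Trf2T188A/ApoE-/- cells, at 73.1 and 77.5 in C2-like cells, at 78.1 and 76.4 in C3-like cells and at 113.2 and 93.1 in C10-like cells, the last from 40 cells each. C8-like cells held 19.2 and 18.1 and C11-like cells 4.39 and 15.0. C2-, C3- and C10-like cells overlapped in their intervals in at least 1 library, and all lay above contractile cells. The log2 ratio of C2-like to contractile cells was 1.28 (1.08 to 1.47) and 1.24 (0.98 to 1.51), and that of C8-like to contractile cells -0.65 (-1.03 to -0.29) and -0.86 (-1.33 to -0.41). At the lower clustering resolution, where both classes were other sets of cells, the Trf2T188A/ApoE-/- ratio of C2-like to contractile cells turned to -0.15.

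Among the members in the 3 VSMC classes after ligation, Scx carried the widest genotype log2 ratio. In C1-like cells it was 24.0 CPM (21.8 to 26.3) in control, from 455 UMIs, and 57.1 (54.0 to 60.3) in Trf2T188A, from 1266 UMIs. The log2 ratio was 1.25 (1.10 to 1.41). In C0-like cells the levels were 28.0 and 35.4, a ratio of 0.33 (0.17 to 0.51), and in C2-like cells 22.9 and 25.8, a ratio of 0.17 (-0.06 to 0.40). The order of classes differed between the libraries as a result: C1-like cells lay below C0-like cells in control (-0.23, -0.42 to -0.03) and above them in Trf2T188A (0.69, 0.57 to 0.81).

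More cells held Scx, and more of them held several UMIs. In C1-like cells 13.0% of control and 31.4% of Trf2T188A cells had an Scx UMI, or 8.07% and 18.2% after thinning to 5000 UMIs. Cells with 2 or more UMIs made up 5.37% and 15.0%, and the 10% of cells richest in Scx held 87.3% and 62.2% of its UMIs. Immune-like cells, which should lack scleraxis, had a UMI in 5.0% of 20 control and 3.51% of 57 Trf2T188A cells, at medians of 6258.5 and 8403 UMIs. Their levels were 5.5 CPM (0.1 to 30.8) in control and 17.9 (8.6 to 32.9) in Trf2T188A. Endothelial-like cells were not free of it, at 25.8% and 26.2% of cells and 33.7 (22.2 to 49.0) and 26.8 (17.9 to 38.5) CPM. The level of C1-like cells did not lie above these cell types beyond the intervals in control, and did so in Trf2T188A.

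The difference was present in each of the 3 larger sub-clusters that held the class at a higher resolution. In a sub-cluster led by Itih4 and Rgs5 (1044 control and 918 Trf2T188A cells) Scx was 29.8 in control and 61.4 in Trf2T188A, with a log2 ratio of 1.04 (0.84 to 1.25). In a sub-cluster led by Igfbp2 and Ptprz1 (850 and 741 cells) it was 15.0 and 44.1, a ratio of 1.55 (1.26 to 1.86). In the smallest, led by Cthrc1 and Ccn5 (137 and 213 cells), it was 34.2 and 71.2, a ratio of 1.06 (0.64 to 1.5). Scx did not differ in this way in plaques, where the genotype log2 ratio was 0.12 (-0.13 to 0.36) in contractile, 0.08 (-0.13 to 0.30) in C2-like and -0.08 (-0.63 to 0.45) in C8-like cells, and the difference between the experiments was not tested.

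Genes of tendon and matrix that are linked to Scx and Prrx1 stood higher in the same Trf2T188A cells. Of 7 with a UMI in enough C1-like cells, 4 were past 0.5 upward and none downward, against 3.89% of all 7977 genes in either direction, with a median of 0.60 against -0.041 over all. Tnc, the matrix glycoprotein tenascin C, was 32.9 in control and 120.8 in Trf2T188A (log2 ratio 1.88, 1.75 to 2.01), and Comp, cartilage oligomeric matrix protein, 33.9 and 84.3 (1.31, 1.18 to 1.45). Tnmd, a defining gene of tendon cells, gave 0 and 5 UMIs in the class. Of the study's de-differentiation genes 5 of 7 were past 0.5, with Dcn (decorin) at 1.83 and Fn1 at 0.10. That list was chosen by the study partly on these samples and is no independent evidence of direction. Col1a1 and Col3a1 stand in both lists, so the count of tendon and matrix genes is not independent of the de-differentiation list. The paper also reports both collagen genes as raised in mutant cells of the matching cluster. Other values that moved with the genotype in this class were the summed endothelial markers (52.8 in control and 78.2 in Trf2T188A, with 1 of 10 at 0 in each), immune markers (25.6 and 14.7) and Neat1 (-0.83), whose part in the Scx value was not tested.

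Within a library, cells with an Scx UMI were compared with those without. In Trf2T188A C1-like cells the 7 tendon and matrix genes were higher in the 570 cells with Scx by log2 ratios of 0.04 to 0.25, with Tnc at 130.2 against 115.5 CPM. In control the ratios of the same genes ran from 0.01 to 0.71, with Comp at the top (0.44 to 0.98), and the intervals of Postn, Tnc and Bgn included 0. The 6 measured de-differentiation genes, with Col1a1 and Col3a1 counted again, had a median ratio of 0.30 in control. All 6 ratios were above 0, but the interval of Sfrp4 (-0.08 to 0.67) included it. Lum (lumican) stood at 227.8 against 129.4 CPM (0.82, 0.69 to 0.94) in control and at a ratio of 0.08 in Trf2T188A. Dcn was lower in Trf2T188A cells with Scx than in those without (93.1 against 121.7). The 14 contractile genes had a median ratio of -0.10 in control, and the 13 measured in Trf2T188A one of -0.01. Cells with Scx were deeper, with medians of 10082.5 against 8537 UMIs in control and 12187.5 against 10374 in Trf2T188A.

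Prrx1, a homeobox factor of mesenchyme, was higher in several plaque classes than in contractile cells. In plaques it was 106.0 and 110.6 CPM in contractile cells, 190.0 and 175.6 in C2-like cells, 161.8 and 195.0 in C8-like cells, and 433.2 and 356.3 in C10-like cells. C5-like cells, at 100.4 (83.8 to 119.3) and 129.1, overlapped contractile cells in their intervals. Log2 ratios to contractile cells were 0.84 and 0.67 for C2-like and 0.61 and 0.82 for C8-like cells. Fibroblast-like ApoE-/- cells held 366.5, and fibroblast markers summed to 277.5 and 364.5 CPM in C2-like cells against 75.7 and 72.7 in contractile cells. After ligation Prrx1 was highest in C2-like cells, at 164.5 in control and 154.5 in Trf2T188A, against 132.8 and 119.7 in C0-like and 118.8 and 108.2 in C1-like cells. Endothelial-like cells held it at 9.98 and 8.32.

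**Figure D5:**
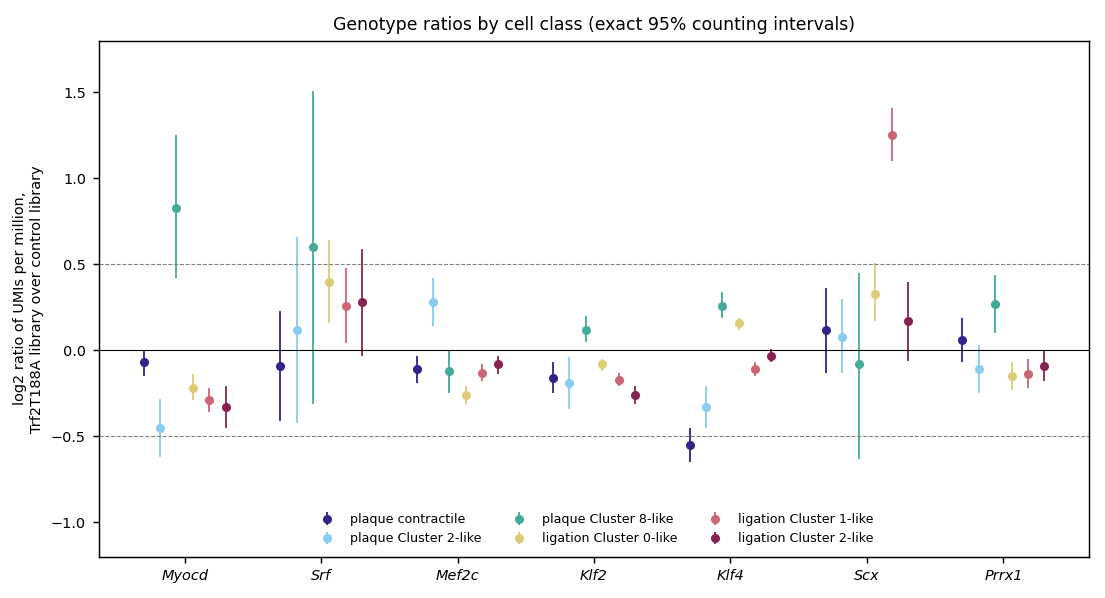
Log2 ratio of CPM, Trf2T188A library over its control library (y axis), for the 7 factors that passed the filter (x axis) in 3 plaque and 3 ligation classes (colours), with exact 95% counting intervals and dashed lines at -0.5 and 0.5. Scx in ligation C1-like cells (1.25), Myocd (0.83) and Srf (0.60) in plaque C8-like cells and Klf4 in plaque contractile cells (-0.55) lie past the lines.

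Counted over all members, few genotype ratios reached 0.5 in either direction. In plaque contractile cells 1 of the 7 members that passed the filter did, against 3.85% of 10152 genes. This was Klf4, at -0.55 (-0.65 to -0.45), from 250.03 in ApoE-/- to 170.8 in Trf2T188A/ApoE-/-. The contractile class is made of 2 clusters with different Klf4 levels. In the cluster with Sh3bgr among its leading genes, which held 53.3% of ApoE-/- and 65.1% of Trf2T188A/ApoE-/- contractile cells, Klf4 was 115.9 and 97.6, a ratio of -0.25 (-0.42 to -0.07). In the cluster led by Dpp10 and Tppp3 it was 400.6 and 309.8, a ratio of -0.37 (-0.50 to -0.25). Klf2 was level within both, at 130.3 and 130.4 and at 351.3 and 360.9. The digestion-induced list had 15 genes at a median of -0.24, 1 of them past 0.5 downward (Btg2, -0.58) and none upward. With cells thinned to 8000 UMIs the Klf4 ratio was -0.39, and at the lower clustering resolution -0.05, both short of the limit.

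In plaque C2-like cells none of the 7 members reached 0.5, where 15.0% of 11352 genes did. Myocd came closest at -0.45 (-0.62 to -0.28), from 155.2 to 113.5 CPM, and its ratio was -0.75 with thinned cells and -0.01 at the lower resolution. Mef2c was at 0.28 (0.14 to 0.42) and Klf4 at -0.33 (-0.45 to -0.21). Of 14 contractile genes 1 was past the limit, Synpo2 at -0.60, with a median of -0.03 over the list.

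In plaque C8-like cells 2 of 7 members were past 0.5, both upward, where 21.6% of 11149 genes were past it in either direction. Myocd was at 0.83 (0.42 to 1.25) and Srf at 0.60 (-0.31 to 1.51), the latter within its counting error. The contractile genes went the other way there, 8 of 14 being past the limit downward, with Actg2 at -3.16 and Des the highest at 0.12. Fibroblast-like markers summed to 218.0 and 407.4 CPM in this class, 5 of the 8 measured being past the limit upward, and their part in these values was not tested. Of the 8 SRF cofactors and competitors 2 were past it downward, with Elk1 the lowest at -0.73. Over all plaque cells no member reached 0.5, against 1.25% of 10526 genes, and the ratios ran from -0.07 for Mef2c to 0.27 for Scx (0.16 to 0.37).

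After ligation, no member was past 0.5 in C0-like cells (1.9% of 8352 genes were) or C2-like cells (2.73% of 8275 genes). In C1-like cells 1 of 7 was, Scx, against 3.89% of 7977 genes. With C0- to C2-like classes pooled it was again 1 of 7, Scx at 0.71 (0.61 to 0.81), against 1.65% of 8228 genes. Klf2 and Mef2c were lower in Trf2T188A in all 3 classes, Klf2 by -0.08, -0.17 and -0.26 and Mef2c by -0.26, -0.13 and -0.08. Among other KLF genes no ratio passed 0.5 in any of the 3 classes, with medians of -0.09, -0.34 and -0.23. Desmin, Des, was past the limit in opposite directions, at 0.58 in C0-like and -1.05 in C1-like cells.

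Between states more members differed, as did more genes. For plaque C2-like against contractile cells 4 of 7 members were past 0.5 in the same direction in both libraries, Scx and Prrx1 upward and Myocd and Srf downward, where 31.0% of 10914 genes were. Of the contractile genes 13 of 14 were past it downward and of the mesenchymal and skeletal factors 9 of 13 upward, led by Runx2, the factor of bone and cartilage, at 4.67, with Osr1 lowest at -1.51. For C8-like against contractile cells 6 of 7 members were past it, Prrx1, Klf4 and Klf2 upward and Myocd, Srf and Scx downward, where 48.4% of 10906 genes were. These comparisons share the contractile cells. In C8-like cells all 14 contractile genes were past the limit downward, and Sp7, the osteoblast factor osterix, led the 7 of 13 mesenchymal factors past it upward at 6.74. Most markers that name the contractile class also stand in the contractile list. The downward counts of that list were therefore largely set by the naming and are no independent evidence.

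After ligation, 1 of 7 members was past 0.5 for C1-like against C0-like cells, Klf2 downward, where 7.95% of 7758 genes were. Prrx2, the paralogue of Prrx1, was the only one of 7 mesenchymal and skeletal factors past it, at 2.02, while Prrx1 itself stood at -0.16 in control and -0.15 in Trf2T188A. For C2-like against C0-like cells 1 of 7 was past it, Myocd downward, where 14.2% of 7900 genes were. Contractile genes were past it downward in 10 of 13 cases, with Actg2 lowest at -2.29, and Runx2 stood at 3.52.

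Genes whose level was most like that of each member were found by Pearson r of log2(CPM + 1) over 23 plaque and 12 ligation points, each a cluster of at least 20 cells in 1 library. These points share libraries and depth, so the values are descriptions. In plaques Myocd was most like Vcl (r = 0.970), the SRF-regulated gene whose promoter window is given above, followed by Nbeal1 and Lpp. By rank (Spearman) the values were 0.914, 0.743 and 0.899. The plaque points include C5-like cells, whose Myocd lay above that of contractile cells. A part of SRF in the likeness to Vcl was not tested. After ligation Myocd was most like Ldb3 and Enah (both 0.996). The ligation points include the endothelial-like and immune-like clusters, and the endothelial-like points lie low for Myocd. Klf4 was most like Egr1 (0.944), Junb (0.924) and Errfi1 (0.881) in plaques and like Ier2 (0.941) after ligation, and Klf2 like Junb (0.871) and Zfp36 (0.837) in plaques, the latter with a CArG box in the window above. Srf was most like Kif5b (0.933) and Pdlim3 (0.932), Mef2c like Tet1 (0.898), Scx like Nucb1 (0.864) and Prrx1 like Mdga2 (0.853) in plaques. Mdga2 is itself a marker used to name C10-like cells.

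Among the members, Myocd and Srf (r = 0.78) and Klf2 and Klf4 (0.76) were the pairs most alike over plaque clusters. After ligation the highest pair was Mef2c and Prrx1 (0.98), where the endothelial-like and immune-like points lie low for both. Myocd and Klf4 had an r of -0.36 in plaques.

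The Confetti reporter, another readout of the same plaque cells, was detected in 83.6% of ApoE-/- and 85.4% of Trf2T188A/ApoE-/- cells. Cells with a Myocd UMI held a reporter UMI in 87.6% (85.7 to 89.4) and 88.2% (85.7 to 90.5) of cases, and cells without it in 61.1% and 74.1%. Cells without Myocd were shallower, with medians of 19858 and 15260 UMIs against 23277 and 25271.5. By class, the reporter was seen in 91.9% and 94.0% of contractile cells, 80.1% and 76.9% of C2-like cells and 61.9% and 76.8% of C8-like cells, and in 25.7% of the 35 fibroblast-like cells. For Klf4 the shares with and without a UMI were 83.8% and 82.5% in ApoE-/- and 85.4% and 85.2% in Trf2T188A/ApoE-/-. Of the 55 ApoE-/- cells with Tcf21, 76.4% (63.0 to 86.8) held a reporter UMI.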

How the data were processed

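Single-cell RNA libraries (10x Genomics 3′) were made from plaque and ligated carotid cells, 1 per genotype. Per the labels, the authors counted reads with Cell Ranger 7.0.0 (plaque) or 6.1.2 (ligation) on GRCm38, filtered cells and, in plaques, kept clusters expressing Confetti. The deposited signal values are linear UMIs per 10000 of each cell, from which whole UMI counts were recovered (100.0% of values within 0.01 of a whole number). No column of per-sample values lacked a sample. Samples were grouped by their labels.

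UMIs were summed per class and library and given per 1000000 UMIs (CPM) with exact Poisson 95% intervals. Ratios are log2 without a pseudocount, with exact conditional intervals. Shares of cells have exact Clopper-Pearson intervals. UMIs are molecules, but intervals and floors cover counting error only. Shares were repeated with cells thinned to 8000 (plaque) or 5000 (ligation) UMIs, leaving out 92 ApoE-/-, 122 Trf2T188A/ApoE-/-, 325 control and 154 Trf2T188A cells. The ratio script was tested on simulated data.

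Cells were clustered with Seurat 5.3.0 (R 4.3.3) on 2000 variable genes with 18 components at resolution 0.9 (plaque) or 17 at 0.2 (ligation), with listed genes left out. A name needed a mean marker log2 ratio of 0.5 and 3 markers, limits set with the clusters seen. Scrublet (scanpy 1.11.5) called 4 cells in all, too few for a working caller, so no cell was removed. Genes with a UMI in at least 10% of cells of either class were compared at a log2 limit of 0.5. Named genes were the members, the highest and lowest of each list, contractile and digestion-induced genes set beside a member, and the 3 genes most like each member; a few others were named after their values were seen. The members and lists were chosen with earlier results of these data known.

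Alternatives were other pseudocounts, resolutions, filters, limits and totals, thinned cells, listed genes kept, and removal of high doublet scores. Promoters were read from RefSeq GRCm38.p6 and gene positions from GENCODE.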

Additional observations from a re-analysis of the deposited data

Results flagged for a closer look

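The genotype ratio of Klf4 in plaques ran in opposite directions between classes. It was higher in Trf2T188A/ApoE-/- in C8-like cells (log2 ratio 0.26) and lower in contractile (-0.55) and C2-like cells (-0.33). The difference between the classes was not tested, since each genotype had 1 library.

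The genotype ratio of Myocd in plaques was 0.83 in C8-like cells, from 87 and 117 UMIs, and -0.45 in C2-like cells, which was not tested either.

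After ligation Scx in C1-like cells stood below C0-like cells in the control library (-0.23) and above them in the Trf2T188A library (0.69). This opposite order between genotypes was not tested.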

How the results depend on the processing

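The number of members at or past a log2 ratio of 0.5 depended on the setting, and the cause was not tested. For genotype in plaque contractile cells it was 1 and became 0 with the study's formula (pseudocount 1), a pseudocount of 0.1, the higher resolution, listed genes kept among the variable genes or thinned cells, and 2 with no filter on the share of cells. Klf4, the member counted there, also fell short of the limit at the lower resolution. In plaque C2-like cells the count was 0 and became 1 with the pseudocount of 0.1, the lower resolution, thinned cells or no filter. In plaque C8-like cells it was 2 and became 0 with the study's formula and 1 with the pseudocount of 0.1 or thinned cells. Over all plaque cells it was 0 and became 1 with no filter. With the study's formula the count of 1 for ligation C1-like cells and for C0- to C2-like classes together became 0. Between states, the study's formula gave 1 in place of 4 (plaque C2-like), 3 in place of 6 (plaque C8-like) and 0 in place of 1 for both ligation comparisons. For ligation C1-like against C0-like cells the higher resolution gave 2, and for C2-like against C0-like cells the pseudocount of 0.1 gave 0 and listed genes kept gave 2. A limit of 0.25 gave 3 members in plaque C2-like, 4 in plaque C8-like and 1 in all plaque cells, 3 in each of the 3 ligation classes and 2 with these together, and 7, 2 and 5 for plaque C2-like, ligation C1-like and ligation C2-like states.

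Scx in plaque C2-like against contractile cells turned from 1.24 to -0.15 in the Trf2T188A/ApoE-/- library at the lower resolution. The Scx ratio in ligation C1-like cells was 0.33 with the study's formula and 0.96 to 1.5 under the other settings. The lower ligation resolution gave no C0-like class, so it gives no value there. Leaving out C5-like or fibroblast-like cells, chosen after seeing the data, left the count over all plaque cells at 0, with Myocd at -0.12 without C5-like cells.

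No paired analysis was possible because each genotype had 1 library. For the same reason no library was left out, and genotype cannot be told apart from library. Srf and Tcf21 gave the fewest UMIs and the widest intervals.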
